A study of Mus musculus with 32 samples.

Results

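The genes described here are the 30 members of the sterol and fatty acid synthesis pathways that sterol regulatory element binding proteins (SREBPs) control, measured in the mouse uterus. They were chosen by name as genes of the pathway, with earlier results of these data known, and a member counts as measured where at least 1 probe of its symbol had a detection p-value of at most 0.05 on any array. Of the 30 members, 27 were measured by 36 probes, among 13439 genes measured by 18903 named probes in all. They are 15 sterol enzymes (of 18 listed), 6 fatty acid enzymes, 5 regulators and the sterol carrier Stard4. For Acat2, Mvk and Fdft1 no probe in the tables used carries the symbol, and they are not analysed here.

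SREBPs are transcription factors that are made as proteins of the endoplasmic reticulum membrane. When sterols are scarce, Scap escorts them to the Golgi, where proteases release the part that enters the nucleus, and when sterols are plentiful Insig proteins hold Scap back. The Srebf2 protein mainly drives genes of cholesterol synthesis and uptake, and the Srebf1 protein mainly drives genes of fatty acid synthesis. In the uterus cholesterol is a component of the smooth muscle membranes in which the oxytocin receptor and caveolae lie.

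RNA came from uterine tissue of FVB/N mice, each array holding 1 mouse. The groups were non-pregnant mice (NP, 4 mice), E6.5 and E8.5 (4 mice each), then E10.5 and E12.5 (5 mice each) and E15.5 and E17.5 (5 mice each), where the morning a vaginal plug was found counts as E0.5. No transgene or drug is described for any of the mice, and NP mice were taken at random. Pregnant uteri were sampled at implantation sites after embryo and placenta had been taken out and decidua scraped away. That dissection is described for pregnant mice only, so in every comparison with NP mice pregnancy and dissection cannot be told apart. RNA of separate pieces was pooled within a mouse.

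All values below are log2 intensities of 1 probe per gene, and changes are differences of log2 group means, given with the standard error of limma's moderated test. A gene is called at a Benjamini-Hochberg adjusted p of at most 0.05 over the 13439 genes. Between 13280 and 14357 probes were detected per array. The 8 smooth muscle markers were measured and 7 of them were detected on every array of each group, with a mean of 10.39 to 10.89 over the groups. Placenta and yolk sac genes (19 of 23 measured) lay over 0.5 log2 above the median of their time point in 5 libraries. They are E17.5 replicates 2 and 5, and 1 library each of E10.5 (replicate 4), E12.5 (replicate 3) and E15.5 (replicate 3), and calls that are lost without these libraries are named beside the result. These are bulk tissue values, in which fewer cells of a type and less RNA per cell cannot be told apart.

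The sterol enzymes followed an arc over pregnancy. They were low at E6.5, high at E8.5 and E10.5 and low again at E15.5 and E17.5, and 10 of the 15 had their highest pregnant mean at E10.5, 3 at E8.5 (Mvd, Sc5d and Tm7sf2) and 2 at E12.5 (Ebp and Fdps). In limma's F test over the 6 pregnant time points 18 of 27 members were called, against 37.9 percent of all genes tested. The 18 were 13 of the 15 sterol enzymes, 2 of the 6 fatty acid enzymes (Acaca and Elovl6), 2 of the 5 regulators (Srebf2 and Insig1) and Stard4. The other 3 Insig1 probes, in a fit of all named probes, were called in the F test too (adjusted p = 1.04e-05 to 0.0297). On the probe taken, the call of Insig1 was marginal (adjusted p = 0.0486). It was lost without the 5 libraries high in placenta and yolk sac genes and when any 1 of 19 libraries was left out (adjusted p up to 0.103), namely NP 4, E6.5 2 and 3, E8.5 4, E10.5 1 to 4, E12.5 1, 2, 3 and 5, E15.5 1, 3 and 5 and E17.5 2 to 5, by replicate number. The median span between the highest and the lowest pregnant mean was 1.21 log2 for the sterol enzymes, 0.55 for the fatty acid enzymes, 0.38 for the regulators and 0.49 for all genes tested. This span and the fatty acid medians below include Fasn, whose probe was detected on 4 of 32 arrays.

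**Figure D1:**
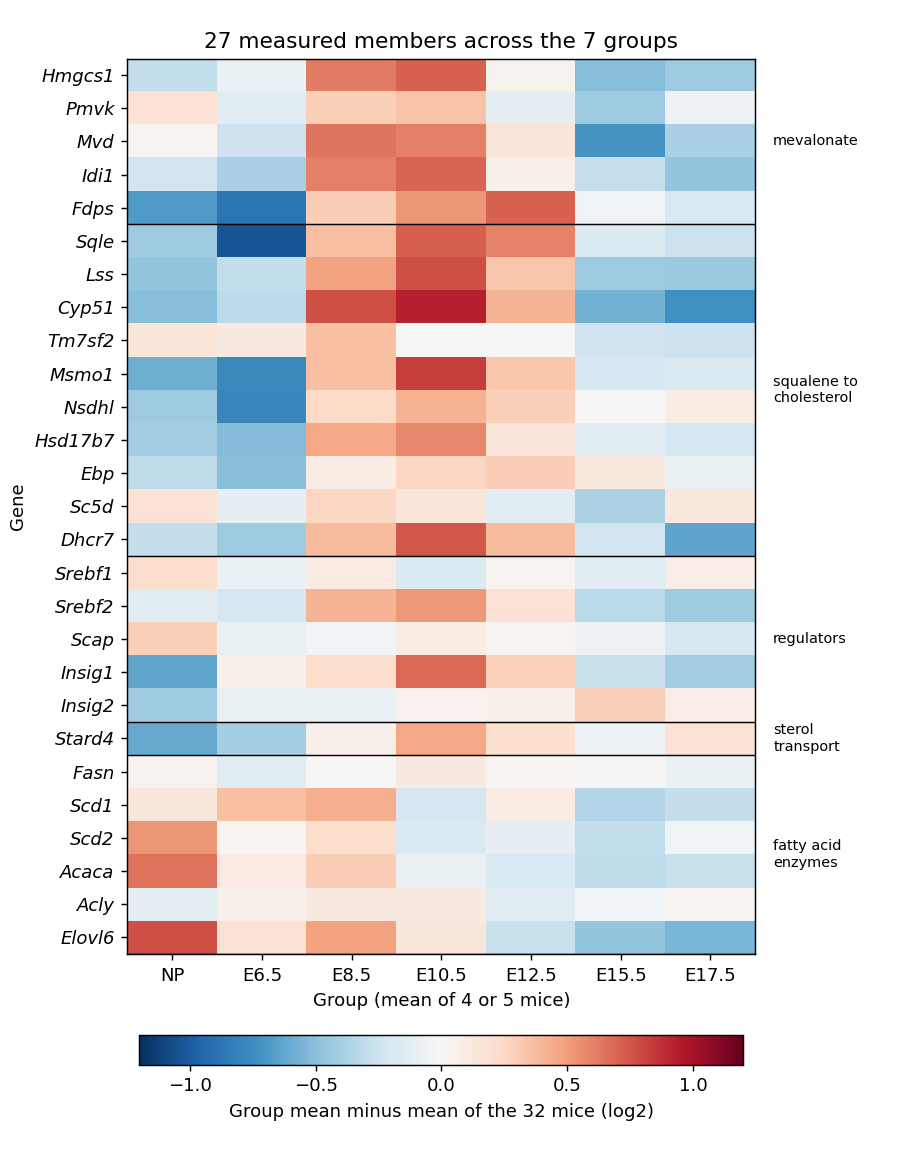
Group means of the 27 measured members (rows, by role) in the 7 groups (columns), coloured by the difference from the gene's own mean over the 32 mice in log2. The sterol rows are mostly red at E8.5 and E10.5, with Cyp51 averaging 8.86 at E10.5 and 7.19 at E17.5, while Acaca and Elovl6 are reddest in NP mice.

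The early steps build isoprene units from acetyl groups. Hmgcs1, which makes HMG-CoA, was measured at 13.03, 13.26, 12.57, 12.92 and 12.73 in the E10.5 mice, against 12.13, 11.74, 12.29 and 12.32 in the E6.5 mice. Every E10.5 value lay above every E6.5 value, and the change was 0.78 ± 0.18 (adjusted p = 0.00207). In the E17.5 mice Hmgcs1 was 11.37, 12.23, 11.68, 11.81 and 11.72, also without overlap with E10.5, a change of -1.14 ± 0.17 (adjusted p = 1.4e-05). Mvd, which decarboxylates the mevalonate chain, averaged 6.75 ± 0.54 in NP mice (SD, n = 4), 6.47 ± 0.47 at E6.5 (n = 4), 7.36 ± 0.42 at E8.5 (n = 4), 7.32 ± 0.24 at E10.5 (n = 5), 6.86 ± 0.17 at E12.5 (n = 5), 6.01 ± 0.16 at E15.5 (n = 5) and 6.33 ± 0.41 at E17.5 (n = 5). It was thus lowest at E15.5. Idi1, which interconverts the isoprene units, and Fdps, which joins them to farnesyl diphosphate, changed by 1.09 ± 0.23 and 1.41 ± 0.25 at E10.5 over E6.5. Fdps kept a high mean at E12.5 (11.59 ± 0.27, n = 5, against 11.42 ± 0.44 at E10.5, n = 5), a difference within the spread of the mice. Pmvk, the kinase of phosphomevalonate, had the smallest change of these 5 genes, 0.46 ± 0.15 (adjusted p = 0.0205), and its call was lost without E6.5 replicate 2, without E10.5 replicate 2 or with only E6.5 and E10.5 arrays fitted.

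The later steps turn squalene into cholesterol. Cyp51, the lanosterol demethylase, read 9.01, 9.03, 8.34, 9.07 and 8.86 in the E10.5 mice, against 7.58, 6.92, 7.92 and 8.05 in the E6.5 mice. The groups did not overlap, and the change was 1.24 ± 0.24, a fold of 2.37 (adjusted p = 0.000232). In the E17.5 mice it read 6.93, 7.35, 7.28, 7.36 and 7.03, all below every E10.5 mouse, with a change of -1.67 ± 0.22, the largest fall of the 27 members between these time points. Dhcr7, a reductase of the last step, read 7.62, 7.78, 7.18, 7.41 and 7.40 at E10.5, against 6.36, 5.68, 6.72 and 6.41 at E6.5. Its change was 1.18 ± 0.18, and at E17.5 (6.11, 5.87, 6.23, 6.29 and 6.01) it lay -1.38 ± 0.17 from E10.5, again without overlap. Lss, which closes the ring to lanosterol, read 7.84, 8.01, 7.62, 7.75 and 7.67 at E10.5, against 6.92, 6.07, 6.95 and 6.91 at E6.5, where replicate 2 stood apart from the other mice. At E17.5 Lss was back to 6.41, 6.92, 6.36, 6.59 and 6.52, a change of -1.22 ± 0.19.

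All 15 sterol enzymes had a lower mean at E17.5 than at E10.5, but 4 of them, Nsdhl, Ebp, Tm7sf2 and Sc5d, were not called lower. Nsdhl, which acts in removal of the methyl groups, read 7.36, 7.18, 7.75, 7.82 and 7.48 in the E17.5 mice, against 6.60, 6.33, 6.81 and 6.87 in the E6.5 mice. Its change at E17.5 over E6.5 was 0.87 ± 0.18 (adjusted p = 0.000403), and at E17.5 over E10.5 it was -0.33 ± 0.17 and not called. Of its 4 probes 3 were called higher at E10.5 than at E6.5, and the fourth, dimmest one had a change of 0.43 in the same direction (adjusted p = 0.105). Sqle, the squalene epoxidase, had the largest change of the 27 members at E10.5 over E6.5, 1.76 ± 0.30 or 3.38-fold, and its other probe, at 1.30, was called as well. Msmo1, the sterol methyl oxidase, changed by 1.60 ± 0.29, Hsd17b7, a sterol ketone reductase, by 1.10 ± 0.24, and Ebp, the sterol isomerase, by 0.77 ± 0.16. Tm7sf2, a sterol reductase, and Sc5d, a desaturase, were the 2 sterol enzymes called in no comparison. Tm7sf2 changed by -0.11 ± 0.20 and Sc5d by 0.25 ± 0.26 at E10.5 over E6.5, and both were dim, with group means of 5.21 to 5.83 and 5.12 to 5.75.

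**Figure D2:**
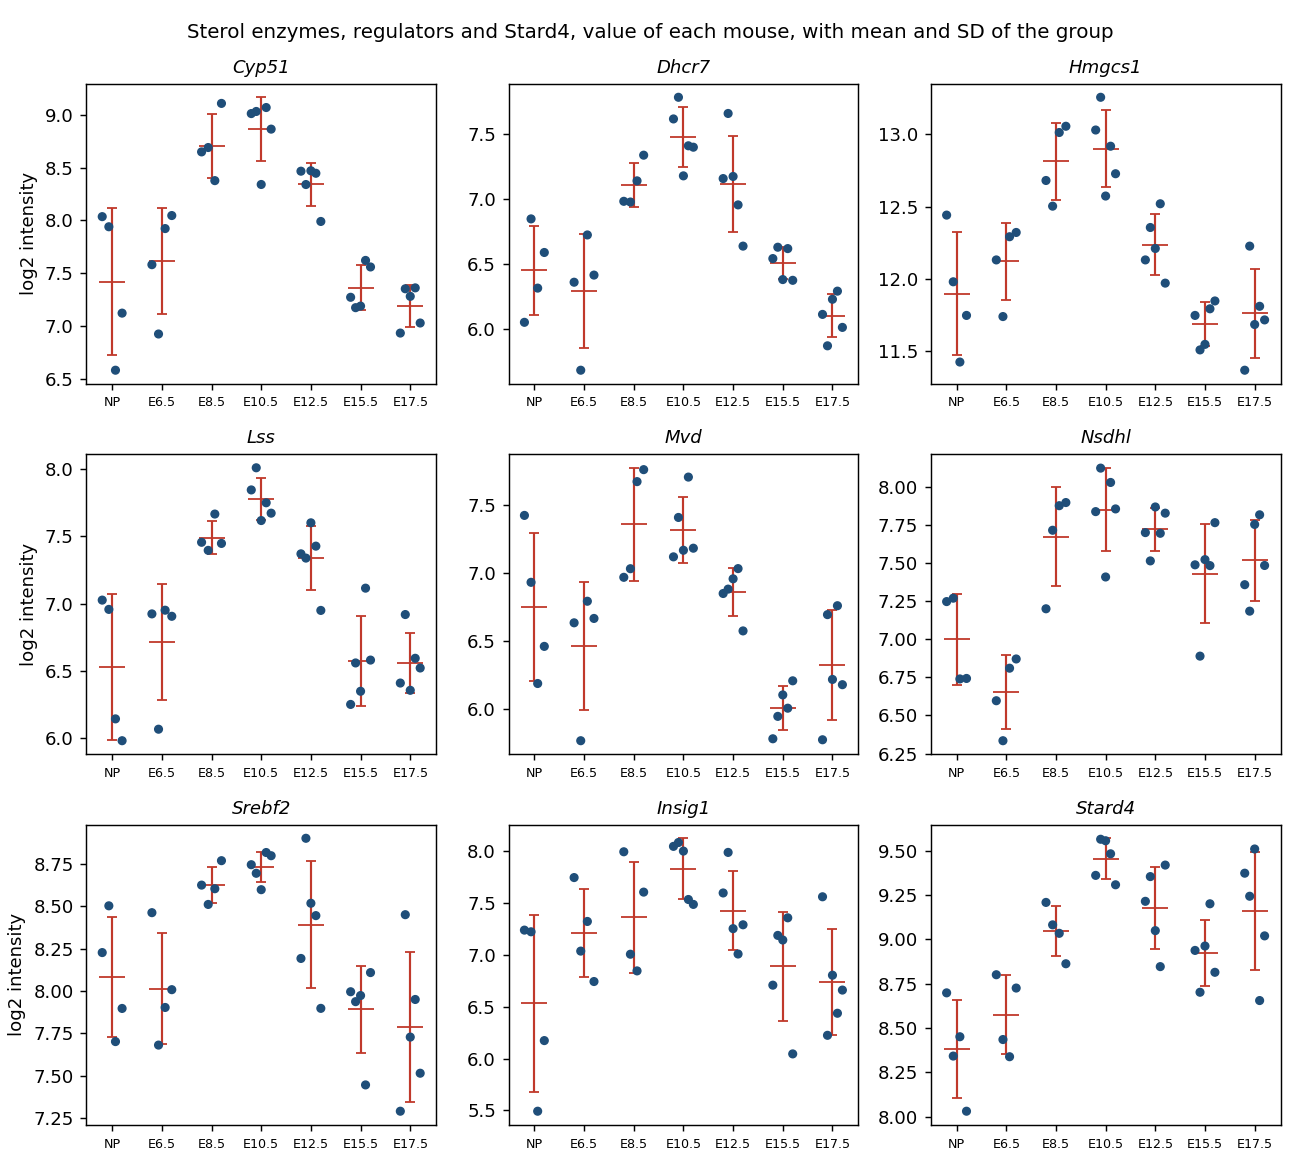
Log2 intensity (vertical axis) of each mouse (points) in the 7 groups (horizontal axis) for the 6 sterol enzymes with the smallest adjusted p in the F test, Srebf2, Insig1 and Stard4, with the group mean and SD as bars. E6.5 replicate 2 is the lowest E6.5 mouse for Cyp51 (6.92), Dhcr7 (5.68), Hmgcs1 (11.74), Lss (6.07), Mvd (5.77), Nsdhl (6.33) and Srebf2 (7.68).

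Upstream sequence of 5 members is shown as examples, so that the letters SREBPs and their partner NF-Y are known to bind can be read. At E10.5 over E6.5 Hmgcs1, Cyp51 and Srebf2 were called higher, and Acaca and Elovl6 were not called. The sequences are RefSeq's for GRCm38.p6, the 250 bases before the 1 start listed for each of these genes, on its own strand. Whether the listed start is the one used in the uterus was not tested, and other starts of these 5 genes were not searched. Capitals mark every match of TCACNCCAC, of the looser TCACNNCA or of CCAAT (the NF-Y letters) on either strand.
Hmgcs1 (chr13:119690101-119690350, plus strand): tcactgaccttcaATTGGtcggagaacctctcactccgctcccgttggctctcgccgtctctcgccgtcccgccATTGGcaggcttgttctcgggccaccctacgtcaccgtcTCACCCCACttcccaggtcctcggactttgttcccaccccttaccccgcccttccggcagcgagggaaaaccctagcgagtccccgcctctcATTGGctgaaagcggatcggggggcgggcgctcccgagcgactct
Cyp51 (chr5:4104698-4104947, minus strand): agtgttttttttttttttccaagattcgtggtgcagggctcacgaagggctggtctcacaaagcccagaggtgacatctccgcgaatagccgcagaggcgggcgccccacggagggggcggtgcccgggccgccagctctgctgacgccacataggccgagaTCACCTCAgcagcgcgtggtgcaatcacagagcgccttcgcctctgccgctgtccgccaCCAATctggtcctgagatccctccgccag
Srebf2 (chr15:82147019-82147268, plus strand): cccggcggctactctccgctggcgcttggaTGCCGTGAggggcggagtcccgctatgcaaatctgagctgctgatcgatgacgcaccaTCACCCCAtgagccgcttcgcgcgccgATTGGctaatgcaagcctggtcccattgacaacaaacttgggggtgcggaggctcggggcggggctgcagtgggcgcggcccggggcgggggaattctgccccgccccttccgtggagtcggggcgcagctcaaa
Acaca (chr11:84195188-84195437, plus strand): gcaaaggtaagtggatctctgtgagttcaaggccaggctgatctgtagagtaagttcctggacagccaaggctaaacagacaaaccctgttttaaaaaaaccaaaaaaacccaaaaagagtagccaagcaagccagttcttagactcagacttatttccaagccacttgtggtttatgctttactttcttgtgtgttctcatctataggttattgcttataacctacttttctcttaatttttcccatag
Elovl6 (chr3:129532136-129532385, plus strand): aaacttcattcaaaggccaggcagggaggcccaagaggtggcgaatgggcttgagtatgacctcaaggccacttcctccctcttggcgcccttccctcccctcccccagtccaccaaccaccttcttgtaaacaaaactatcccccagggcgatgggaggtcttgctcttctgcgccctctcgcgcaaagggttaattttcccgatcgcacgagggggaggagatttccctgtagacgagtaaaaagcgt
The Hmgcs1 window holds TCACNCCAC once, at position -137 counted from the start, and CCAAT 3 times on the opposite strand. The Cyp51 window holds 1 TCACNNCA and 1 CCAAT, the Srebf2 window 2 TCACNNCA and 1 CCAAT, and the Acaca and Elovl6 windows hold none of these letters. The Acaca window ends in a run of pyrimidines and then ag, as introns do before an exon, so its listed start may lie inside the gene. Its lack of matches therefore says nothing of a promoter further upstream, although Acaca stays in the counts below. A window was listed for 24 of the 30 members, measured or not (Acat2 and Mvk are among the 15 sterol enzymes counted here, Fdps, Sqle and Fdft1 are not), and a gene with several windows counts if any of them matches. CCAAT was found for 14 of 15 sterol enzymes (93.3 percent), 4 of 5 regulators and 1 of 4 fatty acid enzymes (Fasn), against 37.5 percent of 27025 genes. TCACNNCA was found for 7 of 15 sterol enzymes (46.7 percent), 2 of 5 regulators and 0 of 4 fatty acid enzymes, against 13.0 percent of genes. The longer TCACNCCAC, each match of which is also a TCACNNCA match, was found for Hmgcs1 alone among the 24, against 1.2 percent of genes. Among measured members with a window, every one called higher at E10.5 over E6.5 had CCAAT. Of those not called, Sc5d, Tm7sf2, Fasn, Srebf1, Insig1 and Insig2 had CCAAT, and Scap, Acaca, Acly and Elovl6 lacked it. TCACNNCA was found for Hmgcs1, Pmvk, Cyp51, Msmo1, Hsd17b7, Dhcr7 and Srebf2, called higher, and for Sc5d and Insig2, not called. Idi1, Lss, Mvd, Nsdhl and Ebp, called higher, lacked TCACNNCA, as did the rest of those not called. Whether the letters go with the calls was not tested. These are matches of letters in 1 short window and no measure of binding.

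The steps between neighbouring time points set the shape of the arc. At E6.5 over NP no member was called higher and 1 was called lower, Acaca, against 4.59 percent of genes called higher and 3.63 percent lower (at an unadjusted p of 0.05, 0 higher and 3 lower). This count was 0 without NP replicate 2, NP replicate 4 or E6.5 replicate 2. Of the 15 sterol enzymes 0 were called there by limma and 0 passed an unadjusted p of 0.05, with a median change of -0.19. At E8.5 over E6.5, 12 members were called higher and 0 lower (0 also at an unadjusted p of 0.05), against 2.14 percent of genes higher and 1.7 percent lower. All 12 were sterol enzymes, with a median change of 0.89 over the 15, and the 3 not called were Pmvk, Tm7sf2 and Sc5d. This count rested on single mice, being 1 without E6.5 replicate 2, 3 without E8.5 replicate 4, and 7 without E6.5 replicate 1 or without E8.5 replicate 3, and it was 7 when only E6.5 and E8.5 arrays were fitted. Without the 5 libraries high in placenta and yolk sac genes it was 9, the calls of Hmgcs1, Lss and Ebp being lost (adjusted p = 0.0503 to 0.0723). At E10.5 over E8.5 no member was called in either direction (1 higher and 1 lower at an unadjusted p of 0.05), against 2.25 percent of genes higher and 2.37 percent lower, and leaving out NP replicate 1 gave 1 call.

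At E12.5 over E10.5 Hmgcs1 alone was called, lower by limma's test, against 0.625 percent of genes higher and 0.729 percent lower. Its change was -0.66 ± 0.17 (adjusted p = 0.0462). The call was lost without the 5 libraries high in placenta and yolk sac genes (adjusted p = 0.141) and when any 1 of 19 libraries was left out, namely NP 4, E6.5 1, 3 and 4, E8.5 1, E10.5 1, 2, 4 and 5, E12.5 1, 2, 3 and 5, E15.5 1, 3 and 4 and E17.5 3 to 5, by replicate number. At E15.5 over E12.5 Cyp51 (-0.98 ± 0.22), Mvd (-0.85 ± 0.22) and Lss (-0.77 ± 0.19) were called lower and no member higher (0 also at an unadjusted p of 0.05), against 0.871 percent of genes higher and 0.558 percent lower. No member of the 3 was called without E12.5 replicate 3, E15.5 replicate 1 or E15.5 replicate 3, or without the 5 libraries high in placenta and yolk sac genes. A single one was called without E12.5 replicate 1, 2 or 4 or E15.5 replicate 2. All 15 sterol enzymes had a negative change in this comparison, with a median of -0.53, against -0.01 for all genes tested. At E17.5 over E15.5 no member was called, with 2 higher and 1 lower at an unadjusted p of 0.05, against 0.305 percent of genes higher and 0.134 percent lower.

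More members were called across the whole rise, a comparison chosen, like that of the fall, with earlier results of these data known. At E10.5 over E6.5, 15 members were called higher and 0 lower (0 also at an unadjusted p of 0.05), against 9.75 percent of genes higher and 12.6 percent lower. They were 13 sterol enzymes, Srebf2 and Stard4. The sterol enzymes had a median change of 1.09, against -0.02 for all genes tested, and none of the 6 fatty acid enzymes was called in limma's test or at an unadjusted p of 0.05, with a median of -0.11. Without E6.5 replicate 2, 12 members were called, the calls of Pmvk, Mvd and Srebf2 being lost.

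Across the whole fall, at E17.5 over E10.5, 14 members were called lower and 0 higher (0 also at an unadjusted p of 0.05), against 9.35 percent of genes lower and 8.98 percent higher. They were 11 sterol enzymes, Srebf2, Insig1 and Elovl6. The median change was -0.98 for the sterol enzymes and -0.13 for the fatty acid enzymes, against -0.01 for all genes tested. Without E17.5 replicate 1, 10 were called, Pmvk, Fdps, Sqle and Elovl6 being lost, and without the 5 libraries high in placenta and yolk sac genes Pmvk, Fdps, Sqle and Insig1 were lost (adjusted p = 0.0531 to 0.217). The call of Fdps was also lost without E10.5 replicate 1, 2 or 4, without E17.5 replicate 3 or 5, and under median scaling of the arrays. That of Pmvk was also lost without E10.5 replicate 2 or 3 or E17.5 replicate 4 or 5. Median scaling, fitting only E10.5 and E17.5 arrays, array weights, and an intensity trend with robust variance each lost the call of Pmvk too. The rise and the fall share the E10.5 mice.

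**Figure D3:**
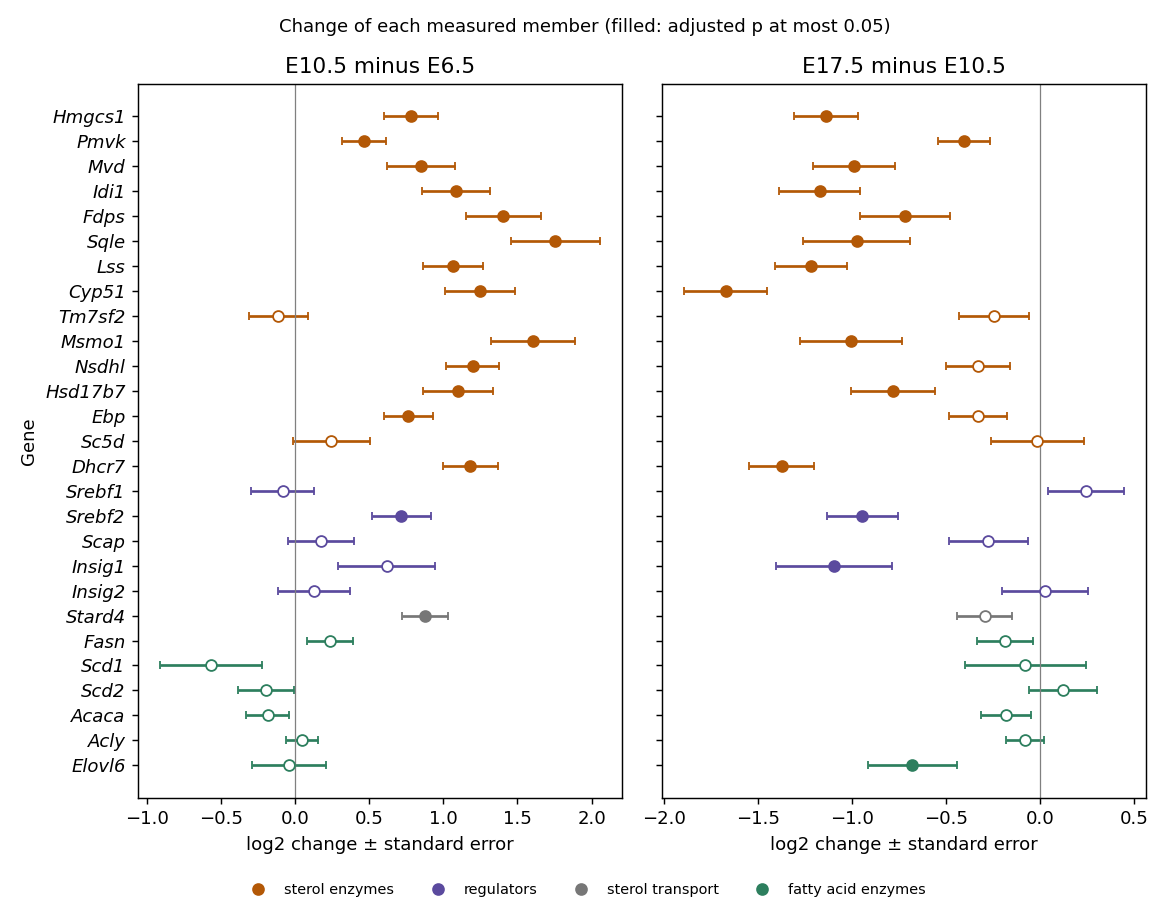
Log2 change with its standard error (horizontal axis) for each of the 27 measured members (rows, coloured by role) at E10.5 over E6.5 and at E17.5 over E10.5, filled where the adjusted p is at most 0.05. Sqle lies farthest right at 1.76 in the first panel and Cyp51 farthest left at -1.67 in the second, while 5 of the 6 fatty acid enzymes are unfilled in both.

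At E17.5 over E6.5 the sterol enzymes went both ways, 8 with a higher mean and 7 with a lower one, from -0.43 (Cyp51) to 0.87 (Nsdhl), with a median change of 0.06. In this comparison 4 members were called higher, the sterol enzymes Fdps (0.69 ± 0.25), Nsdhl and Ebp (0.43 ± 0.16) and the carrier Stard4, and 1 lower, Elovl6, against 12.3 percent of genes higher and 17 percent lower. Sqle (0.78 ± 0.30, adjusted p = 0.0516) and Msmo1 (0.60 ± 0.29, adjusted p = 0.12) had positive changes that were not called. The count of 5 was 3 without E6.5 replicate 1, E17.5 replicate 2 or E17.5 replicate 3. The call of Fdps was lost without E6.5 replicate 2 or E17.5 replicate 2, 3 or 4, and that of Ebp without any 1 of 17 libraries, namely E6.5 1 to 4, E10.5 1, 2, 3 and 5, E12.5 3 and 5, E15.5 1, 2 and 4 and E17.5 1, 2, 3 and 5, by replicate number. Both were lost without the 5 libraries high in placenta and yolk sac genes. At E10.5 over NP, 14 members were called higher and 2 lower, against 11.4 percent of genes higher and 14.8 percent lower. The 14 were 11 sterol enzymes, Srebf2, Insig1 and Stard4, and the sterol enzymes had a median change of 0.99. The calls of Ebp and Srebf2 were lost without NP replicate 3 or 4. At E17.5 over NP, Nsdhl and Stard4 were called higher and Scd2, Acaca and Elovl6 lower, against 14.1 percent of genes higher and 19.1 percent lower, a count of 5 that was 3 without NP replicate 4. The call of Nsdhl (0.52 ± 0.18) was also lost without NP replicate 3, E17.5 replicate 3 or E17.5 replicate 4, and under median scaling of the arrays. In limma's fit of all named probes, none of the other Nsdhl probes was called at E17.5 over NP (adjusted p = 0.0805 to 0.553).

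Among the regulators Srebf2 was called in the same directions as the sterol enzymes. Srebf2 read 8.75, 8.70, 8.60, 8.82 and 8.80 in the E10.5 mice, against 8.46, 7.68, 7.90 and 8.01 in the E6.5 mice, a change of 0.72 ± 0.20 (adjusted p = 0.00943) without overlap, and the adjusted p was 0.0521 without E6.5 replicate 2. In the E17.5 mice it read 7.29, 8.45, 7.73, 7.95 and 7.51, a change of -0.94 ± 0.19 from E10.5 (adjusted p = 0.000506). Replicate 2 was high among the E17.5 mice but still below every E10.5 mouse. Its change at E8.5 over E6.5, 0.61 ± 0.21, was not called (adjusted p = 0.103).

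Srebf1 was dim and was called in no comparison. Its probe was detected on 21 of 32 arrays, with group means of 5.41 (NP), 5.12 (E6.5), 5.30 (E8.5), 5.04 (E10.5), 5.23 (E12.5), 5.06 (E15.5) and lastly 5.28 in E17.5 mice. A second Srebf1 probe, detected on 8 arrays, was not called either, so no change of Srebf1 was detectable at this signal. Scap, the escort protein, had group means between 7.81 (E17.5) and 8.29 (NP) and was not called, with a change of 0.18 ± 0.22 at E10.5 over E6.5.

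Insig1, itself a target of SREBPs and a brake on them, read 8.05, 8.09, 8.00, 7.54 and 7.49 in the E10.5 mice, against 7.24, 7.22, 5.49 and 6.17 in the NP mice. The change was 1.30 ± 0.33 (adjusted p = 0.00308) and the groups did not overlap. At E17.5 it lay -1.09 ± 0.31 from E10.5 (adjusted p = 0.011), with E17.5 replicate 1 (7.56) reaching into the E10.5 range. The other 3 Insig1 probes were also called lower there, at -0.71 to -1.18. At E10.5 over E6.5 the probe taken, at 0.62 ± 0.33, was not called, whereas 2 of the other 3 Insig1 probes were, at 1.07 and 1.36, and the dimmest was at 0.52 (adjusted p = 0.0521). The same 2 probes were called higher at E8.5 over E6.5, at 0.86 and 0.93 (adjusted p = 0.0278 and 0.0266). The probe taken (0.15) and the dimmest (0.12) were not called there. At E15.5 over E12.5 only 1 Insig1 probe was called, lower at -0.78 (adjusted p = 0.0412). Insig2, a second retention protein, had no called change on its taken probe (0.13 ± 0.24 at E10.5 over E6.5). Its other probe was called in the F test and higher at E10.5 than at E6.5, at 0.36 (adjusted p = 0.0327). That probe was still higher at E17.5 than at E6.5, at 0.53 (adjusted p = 0.00142), and did not fall at E17.5 from E10.5 (0.16, adjusted p = 0.384). It was also called higher than in NP mice at E10.5 (0.55) and at E17.5 (0.72).

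Stard4, a carrier of sterols between membranes, rose like the sterol enzymes but was not called lower afterwards. It read 9.36, 9.56, 9.56, 9.48 and 9.31 in the E10.5 mice, against 8.80, 8.43, 8.34 and 8.72 in the E6.5 mice, a change of 0.88 ± 0.15 (adjusted p = 0.000102). In the E17.5 mice it read 9.37, 9.24, 9.51, 8.65 and 9.02, and these stayed 0.59 ± 0.15 above E6.5 (adjusted p = 0.00427), with E17.5 replicate 4 inside the E6.5 range. The change at E17.5 over E10.5 was -0.29 ± 0.15 (adjusted p = 0.182).

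Of the 6 fatty acid enzymes none was called between E6.5 and E8.5 or between E6.5 and E10.5. All 6 had a positive change at E8.5 over E6.5 (0.05 to 0.31, 0 at an unadjusted p of 0.05), 4 had their highest pregnant mean at E8.5 (Acaca, Elovl6, Scd1 and Scd2), and 3 had their lowest at E15.5 (Acaca, Scd1 and Scd2). Fasn was detected on no E6.5 or E8.5 array, so the sign of its change there, counted among the 6, carries no information. Elovl6, which elongates saturated chains, read 6.16, 7.29, 6.84, 6.98 and 6.98 in the E17.5 mice, against 7.78, 8.53, 8.08 and 8.29 in the NP mice. The groups did not overlap, and the change was -1.32 ± 0.25, a fold of 0.401 (adjusted p = 0.000117). Its fall at E17.5 from E10.5 (-0.68 ± 0.24, adjusted p = 0.0421) was lost without replicate 1, 3, 4 or 5 of E17.5 or replicate 3, 4 or 5 of E10.5, and under median scaling of the arrays. Its fall at E17.5 from E6.5 (-0.72 ± 0.25, adjusted p = 0.029) was lost under that scaling too, and without E6.5 replicate 1, 3 or 4 or E17.5 replicate 1.

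Acaca, the acetyl-CoA carboxylase that starts fatty acid synthesis, read 9.41, 9.36, 9.30, 9.45 and 9.39 in the E17.5 mice, against 9.72, 10.45, 10.45 and 10.56 in the NP mice. All E17.5 values lay below all NP values, with a change of -0.92 ± 0.14 (adjusted p = 7.65e-06), and NP replicate 1 was the low NP mouse. Acaca was already lower at E6.5 than in NP mice (-0.55 ± 0.15, adjusted p = 0.0171), a call lost without NP replicate 2, 3 or 4 or E6.5 replicate 2. Within pregnancy its change at E17.5 over E6.5 was -0.37 ± 0.14 and just missed the threshold (adjusted p = 0.0504).

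Stearoyl-CoA desaturases make monounsaturated fatty acids. Scd2 read 8.43, 9.28, 8.93, 8.74 and 8.56 in the E17.5 mice, against 8.94, 9.92, 8.96 and 9.63 in the NP mice, a change of -0.57 ± 0.19 (adjusted p = 0.0194) with overlap. This call was lost without NP replicate 2 or 4 or E17.5 replicate 1 or 5 or with only NP and E17.5 arrays fitted, and the call at E10.5 over NP (-0.69 ± 0.19, adjusted p = 0.00641) without NP replicate 2. Scd1 was not called in any comparison, and averaged 8.73 ± 0.49 in NP mice (SD, n = 4), 8.96 ± 0.38 at E6.5 (n = 4), 9.03 ± 0.60 at E8.5 (n = 4), 8.39 ± 0.10 at E10.5 (n = 5), 8.69 ± 0.99 at E12.5 (n = 5), 8.25 ± 0.34 at E15.5 (n = 5) and 8.31 ± 0.40 at E17.5 (n = 5). The spread at E12.5 came from replicate 2, at 10.44, against 8.20, 8.28, 8.01 and 8.53 in the other mice. At E10.5 over E6.5 its groups did not overlap, yet the change of -0.57 ± 0.34 was not called (adjusted p = 0.271).

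That E12.5 mouse was also the highest of the 32 in Adipoq, and the part of adipocytes in the Scd1 value was not tested. Of 11 adipocyte markers 7 were measured, of which 4 to 6 were detected on any array of a group, and Adipoq, the adiponectin gene, was detected on 7 of 32 arrays. Adipoq read 8.59 in E12.5 replicate 2 and 4.79 to 5.94 in the other E12.5 mice. The next highest Adipoq values were in E17.5 replicate 4 (7.25, Scd1 at 8.03), E17.5 replicate 2 (7.01, Scd1 at 8.99) and E8.5 replicate 1 (6.82, Scd1 at 9.33), while the highest Scd1 of the E8.5 mice, 9.73 in replicate 3, went with an Adipoq value of 4.59. High Scd1 thus went with high Adipoq in some of these mice and not in others. The mean of the 7 markers was 4.71 (NP), 4.83 (E6.5), 4.90 (E8.5), 4.95 (E10.5), 5.42 (E12.5), 5.44 (E15.5) and lastly 5.65 in E17.5 mice.

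Acly, which makes cytosolic acetyl-CoA for both branches, varied little. Its group means lay between 11.29 (E12.5) and 11.53 (E10.5), and its changes were 0.05 ± 0.11 at E10.5 over E6.5 and -0.08 ± 0.10 at E17.5 over E10.5. Fasn, the fatty acid synthase, was detected on 4 of 32 arrays, 1 NP, 1 E10.5 and 2 E15.5 mice, and was not well above background at E6.5, E8.5, E12.5 and E17.5. No fold is given for it, since its probe does not show whether Fasn changed.

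**Figure D4:**
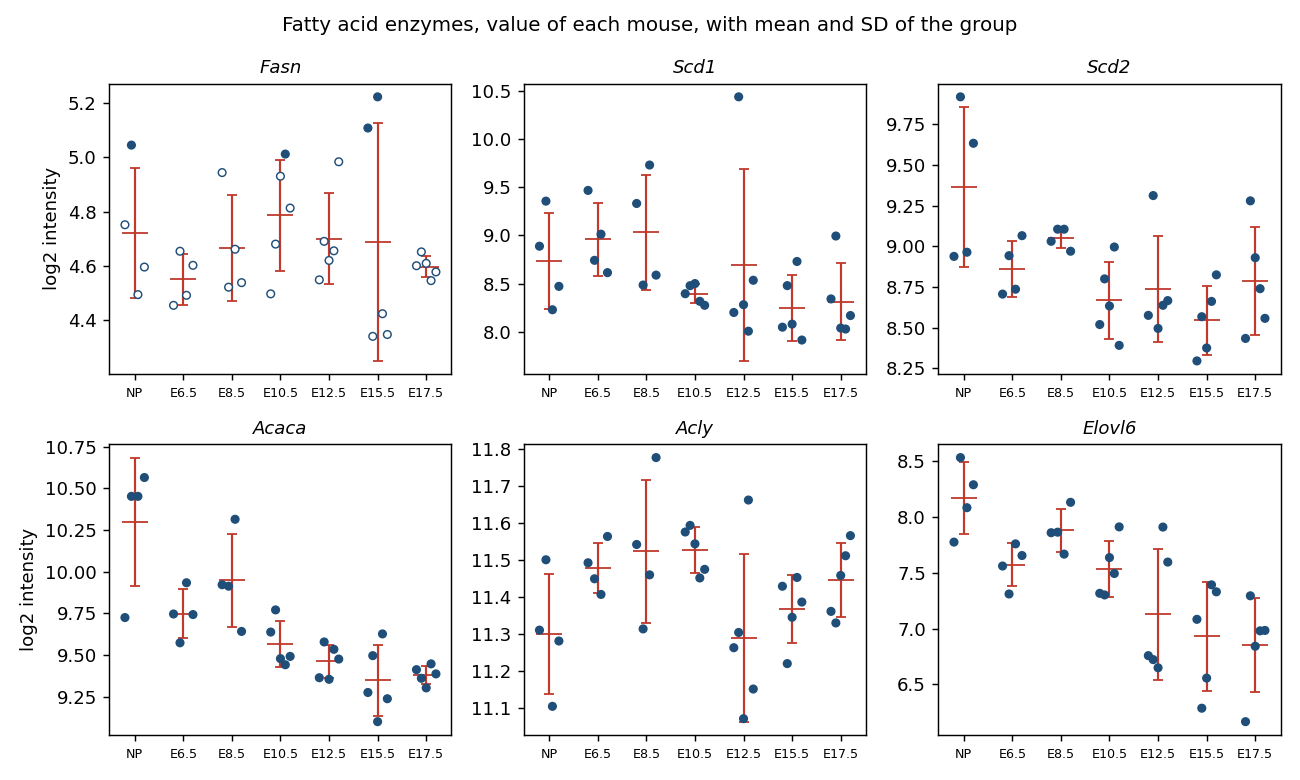
Log2 intensity (vertical axis) of each mouse (points, filled where the probe was detected) in the 7 groups (horizontal axis) for the 6 fatty acid enzymes, with the group mean and SD as bars. Acaca and Elovl6 are highest in NP mice, E12.5 replicate 2 stands out for Scd1 at 10.44, and Fasn is open in all but 4 mice.

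The branches were set side by side in each mouse as the mean deviation of their enzymes from each gene's mean over the 32 mice. Fasn, detected on 4 of 32 arrays, is among the fatty acid enzymes averaged here. The sterol branch stood at -0.27 ± 0.43 in NP mice (SD, n = 4), -0.43 ± 0.36 at E6.5 (n = 4), 0.41 ± 0.18 at E8.5 (n = 4), 0.55 ± 0.18 at E10.5 (n = 5), 0.23 ± 0.12 at E12.5 (n = 5), -0.28 ± 0.14 at E15.5 (n = 5) and -0.28 ± 0.17 at E17.5 (n = 5). The fatty acid branch stood at 0.34 ± 0.27 (NP), 0.10 ± 0.06 (E6.5), 0.26 ± 0.14 (E8.5), -0.02 ± 0.06 (E10.5), -0.09 ± 0.24 (E12.5), -0.24 ± 0.12 (E15.5) and lastly -0.20 ± 0.16 in E17.5 mice. The sterol branch thus peaked at E10.5, where the fatty acid branch was near its mean, and the fatty acid branch was highest in NP mice. Both were below their means in late pregnancy. The difference between the branches was not tested. The lowest sterol value of the 32 mice was that of E6.5 replicate 2 (-0.94), and the NP mice were spread from -0.76 to 0.12.

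**Figure D5:**
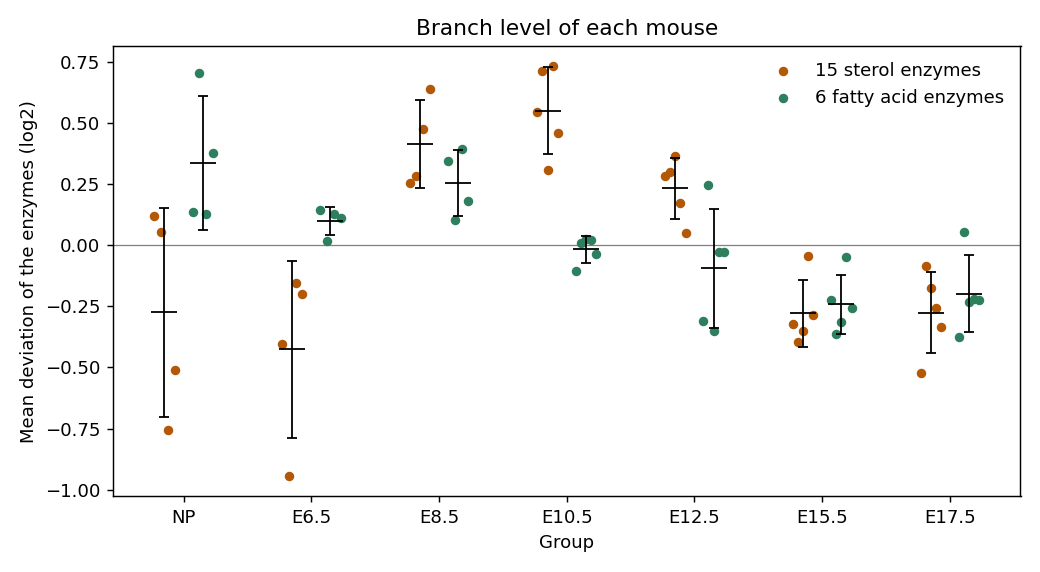
Mean deviation in log2 (vertical axis) of the 15 sterol enzymes and the 6 fatty acid enzymes in each mouse (points) over the 7 groups (horizontal axis), with the group mean and SD as bars. The 5 E10.5 mice lie above zero for the sterol enzymes (mean 0.55) and around zero for the fatty acid enzymes (mean -0.02).

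Markers of other cells moved over the same days. The mean of the leukocyte list (10 of 12 measured) was 7.25 (NP), 7.55 (E6.5), 8.82 (E8.5), 9.13 (E10.5), 9.11 (E12.5), 8.58 (E15.5) and lastly 7.80 in E17.5 mice. Over single mice it ranged from 8.75 to 9.40 at E10.5, from 7.42 to 7.71 at E6.5 and from 7.65 to 8.03 at E17.5. All 10 genes were detected in every group, and 7 were called higher at E10.5 than at E6.5 and 6 lower at E17.5 than at E10.5. The list of dividing cells (9 of 13 measured) stood at 8.06 (NP), 8.22 (E6.5), 8.86 (E8.5), 8.68 (E10.5), 7.84 (E12.5), 7.04 (E15.5) and lastly 6.96 in E17.5 mice. It ranged from 8.43 to 8.86 at E10.5, from 7.61 to 8.59 at E6.5 and from 6.68 to 7.37 at E17.5. All 9 genes were detected in every group, with 2 of 9 called higher at E10.5 than at E6.5 and 9 of 9 lower at E17.5 than at E10.5. Epithelial markers (10 of 11 measured) averaged 9.08 (NP), 7.09 (E6.5), 6.84 (E8.5), 8.24 (E10.5), 8.53 (E12.5), 9.61 (E15.5) and lastly 10.24 in E17.5 mice, lowest at E8.5 and highest at E17.5. The part of these cells in the sterol values was not tested.

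Other genes of sterol and fatty acid handling, from a list of 35 of which 24 were measured, did not share 1 direction. Of the 24, 15 were called in the F test, against 37.9 percent of all genes tested. At E10.5 over E6.5, 5 were called higher and 5 lower, against 9.75 and 12.6 percent of genes, and at E17.5 over E10.5, 6 higher and 4 lower, against 8.98 and 9.35 percent. Tmem97, a regulator of sterol transport that SREBPs induce, averaged 9.52 ± 0.17 at E10.5 (SD, n = 5), against 8.91 ± 0.48 at E6.5 (n = 4), and 8.17 ± 0.28 at E17.5 (n = 5), with changes of 0.62 ± 0.21 and -1.36 ± 0.20. Mylip and Abcg1 are known targets of the sterol-sensing LXR receptors. Mylip, which marks the LDL receptor for breakdown, was called lower at E10.5 than at E6.5 (-0.68 ± 0.18) and higher at E17.5 than at E10.5 (0.89 ± 0.17), its probe being detected on 1 E10.5 array. Abcg1, a sterol exporter, was not well above background at E8.5 and E10.5 and was at least 1.5-fold lower at E10.5 (measured mean 4.70) than at E6.5 (5.61), a bound set by the lowest signal among detected probes.

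Ch25h, which makes the oxysterol 25-hydroxycholesterol, had the largest span over pregnancy of the 24 genes. It averaged 10.16 ± 0.43 at E10.5 (SD, n = 5), against 5.89 ± 0.21 in NP mice (n = 4), 7.51 ± 0.55 at E6.5 (n = 4) and 7.70 ± 1.02 at E8.5 (n = 4). Its change at E10.5 over E6.5 was 2.65 ± 0.33 and at E17.5 over E10.5 it was -2.56 ± 0.31. Mid1ip1, which promotes the activity of acetyl-CoA carboxylase, averaged 11.48 ± 0.25 at E17.5 (SD, n = 5), against 8.86 ± 0.14 at E6.5 (n = 4), a change of 2.62 ± 0.16. Fads1, a desaturase of polyunsaturated fatty acids, was lower at E17.5 than at E6.5 (-0.76 ± 0.15).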

How the data were processed

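Illumina MouseRef-8 v2 arrays held the uterine RNA of 32 FVB/N mice, 1 mouse each. The authors deposited an intensity per probe and array before normalisation, with a detection p-value against negative control beads. They also deposited log2 values, made with limma (normexp correction from the control probes, then quantile normalisation). These cover 20169 of 25697 probes, and the 5528 others exceed a detection p-value of 0.05 on each of the 32 arrays. The deposited log2 values were used here. The median of each array's log2 values was 6.12. Values computed anew from the intensities with neqc (offset 16) differed by at most 0.0339. A single value (1) is missing, of a gene that is no member. Names came from the platform annotation, updated through Entrez IDs to RefSeq for 13430 of 13439 genes; 18903 probes carry 1 symbol, none several, and 1266 none.

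Where a gene has several probes (3704 genes) the probe with the highest SD was taken, as in the methods. Groups were compared with limma 3.58.1 in R 4.3.3, in 1 linear model over the 7 groups, by 2-sided moderated tests for 11 comparisons and an F test over the 6 pregnant time points, each adjusted over 13439 genes by Benjamini-Hochberg. The procedure was tested on simulated data. The number of arrays limits precision, and probes detected on no array of a group have only a bound there, set by the lowest signal among detected probes. Alternatives changed the source of values, background correction, scaling, filter, probe, samples in the fit, variance model, weights, replicate block and libraries. Motifs were searched with Python 3.11.15.

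The members, the lists and the comparisons of groups that are not neighbours in time were chosen with earlier results of these data known. All members could be named; values are given for the 6 sterol enzymes with the smallest F test p, the fatty acid enzymes, the regulators and Stard4, and up to 6 genes of the list of other pathway genes with the smallest F test p.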

Additional observations from a re-analysis of the deposited data

Results flagged for a closer look

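In 9 of 140 groups of 4 or 5 mice, 1 mouse lay far outside the others, the gap to the nearest mouse being most of the group's range. Chance marks about 1 in 20 groups this way. At E6.5, replicate 2 was low for Lss (6.07, nearest mouse 6.91) and Mvd (5.77, nearest 6.64), and replicate 1 was low for Scap (7.82, nearest 7.94). Cyp51 was low in E10.5 replicate 3 (8.34, nearest 8.86) and in E12.5 replicate 5 (7.99, nearest 8.34). Srebf2 was low in E15.5 replicate 4 (7.44, nearest 7.94). E12.5 replicate 2 was high for both desaturases, Scd1 (10.44, nearest 8.53) and Scd2 (9.31, nearest 8.67). Acaca was low in NP replicate 1 (9.72, nearest 10.45).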

How the results depend on the processing

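No change of a member that was called above or under another setting had the opposite sign under that setting. Sign changes of values called in neither were not counted as reversals. Of 90 called values (changes and F tests) 14 were lost without the 5 libraries high in placenta and yolk sac genes, 12 with only the compared arrays fitted and 7 with median scaling, the most of the 10 settings that leave out no single mouse. Without background correction the sterol medians were 0.57 at E10.5 over NP, 0.65 at E10.5 over E6.5 and -0.65 at E17.5 over E10.5, each smaller in size than the deposited values give. With median scaling no member was called at E12.5 over E10.5, and the fatty acid median at E10.5 over E6.5 was -0.044. Fitting only the arrays compared gave 0 calls at E6.5 over NP, 7 at E8.5 over E6.5, 0 at E12.5 over E10.5 and 3 at E17.5 over NP. Array weights gave 2 at E6.5 over NP, 2 at E12.5 over E10.5, 5 at E15.5 over E12.5, 8 at E17.5 over E6.5 and 9 at E17.5 over NP. Without the 5 libraries, counts were 0 at E12.5 over E10.5, 0 at E15.5 over E12.5 and 3 at E17.5 over E6.5. The cause of these moves was not tested.

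Leaving out 1 mouse at a time gave 17 to 20 members in the F test, 0 to 1 at E6.5 over NP, 1 to 12 at E8.5 over E6.5, 0 to 1 at E10.5 over E8.5, 0 to 1 at E12.5 over E10.5, 0 to 4 at E15.5 over E12.5, 0 to 0 at E17.5 over E15.5, 14 to 18 at E10.5 over NP, 12 to 15 at E10.5 over E6.5, 10 to 14 at E17.5 over E10.5, 3 to 7 at E17.5 over E6.5 and 3 to 6 at E17.5 over NP. Sterol medians ran over 0.80 to 1.08 (E10.5 over NP), 0.88 to 1.15 (E10.5 over E6.5) and -1.08 to -0.79 (E17.5 over E10.5). Fatty acid medians ran over -0.59 to -0.32, -0.15 to -0.05 and -0.19 to -0.10 in the same comparisons.

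Replicate numbers did not pair the mice: 90 same-numbered pairs had a mean correlation of 0.03 in their deviations (-0.41 to 0.43), against -0.01 for other pairs, and 7 of 32 arrays were closest to their own number. With the replicate number as a block, 0 members were called at E12.5 over E10.5 and the other counts stayed within 1.5 times. Leaving the detection filter off gave no value, since the added probes carry no gene name in the tables used. Dim probes (Fasn, Srebf1, Tm7sf2, Sc5d) limit what can be seen.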
